A study of Mus musculus with 8 samples.

Results

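U5 is a small nuclear RNA (snRNA) of the spliceosome, and the mouse genome carries several near-identical copies of its gene. Of the 964 rows of the deposited small RNA table, the 9 whose names begin with U5 and a dot, U5.2-201 to U5.10-201, are described here, chosen by name with no filter on level. Small RNA libraries were made from GMLPs, sorted bone marrow progenitors with granulocyte, monocyte and lymphoid potential. Wild-type (WT) cells gave 4 libraries, and cells of the genotype iMLL-ENL, with an inducible form of the leukaemia fusion of the histone methyltransferase MLL with ENL, gave the other 4. Both groups, controls included, were cultured for 3 days with doxycycline, which turns on transgenes of this kind. The labels name no age, no promoter or cell type that drives the transgene, no number of pooled animals, and no animal of origin for a replicate. The p-values therefore rest on the spread of these samples alone, and that spread may be technical. The rows are small non-coding RNAs, so neither the cell type nor the fusion could be checked against marker or transgene levels.

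U5 enters the spliceosome with U4 and U6 as a preassembled particle, together with the large protein Prp8. Its conserved loop contacts the exon ends at both splice sites and holds them for joining, and a ring of Sm proteins sits on a uridine-rich site near the 3′ end. U5 works in both the major and the minor spliceosome. The copies of its gene differ mostly outside the conserved loop, and more than 1 form of U5 has been described in mammalian cells.

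None of the 9 row names is a transcript name of GENCODE release M21, so a row could not be tied to a locus. Copies of U5 are alike enough that a short read can fit more than 1 of them. The sources used here give neither the read lengths nor the treatment of such reads, so the split of U5 reads between rows depends on a step that was not tested, and whole U5 was not told apart from its fragments.

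The values are in RPM, read counts scaled to the size of each library, and the step between neighbouring values showed what 1 read was worth. By this estimate the 9 rows held 4281 to 17073 reads per library, out of 1973055 to 2959969 reads in all rows. A value of 1 step was seen only in WT replicates 3 and 4, and the smallest value elsewhere was 2 to 7 steps. Read numbers in those other libraries are therefore less certain. The library size behind the RPM scale was larger, at 5910000 to 9270000 reads by the same step. All rows together held 25.97% to 38.45% of it. This portion was at most 29.19% in iMLL-ENL libraries and above that in every WT library. RPM values thus depend also on reads in no row, whose portion differed between the groups. Scaling to the row total, given below, leaves those reads out. A level of 3 reads lay at 0.323 to 0.507 RPM. WT replicate 2 stood apart, correlating with the rest of its group at 0.908 on average over the 633 rows tested, where the remaining WT libraries reached 0.955 to 0.968 and iMLL-ENL libraries 0.990 to 0.994. The comparisons of U5 between the groups are therefore given with and without it. In these bulk samples, fewer cells of a type and less RNA per cell cannot be told apart.

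The composition of the U5 pool differed between the groups, though with all 8 libraries the number of its shares called was near the background of all tested shares. Without WT replicate 2, 2 of its 7 tested shares were called higher and 2 lower, where 13% and 14.4% of all tested shares were. Row U5.5-201 took a larger share of the U5 reads in iMLL-ENL than in WT cells and row U5.7-201 a smaller one. The call for the share of U5.7-201 was lost when certain single libraries were left out. U5.5-201 was also the 1 row of the 7 tested whose level was called higher on the deposited scale, where all 7 had a log2 fold change above 0. The call for its level was lost under another scaling and when certain single libraries were left out. The sum of the 9 rows did not pass the test with all 8 libraries. Without WT replicate 2 the sum was called higher by limma, as were 41.6% of the sums of all name families, while its exact permutation p was 0.0571.

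The summed U5 level was 1302, 2218, 724 and 909 RPM in WT replicates 1 to 4. In iMLL-ENL replicates 1 to 4 it was 1757, 1827, 1707 and 1364 RPM. The groups overlapped through WT replicate 2, which held the highest sum of all libraries, and the iMLL-ENL libraries all lay above the other WT libraries. The means were 1288 ± 665 and 1664 ± 205 RPM (SD, n = 4), a ratio of 1.29. The coefficient of variation was 51.6% in WT, 30.2% without WT replicate 2, and 12.3% in iMLL-ENL. In a limma fit of the sums of all 332 name families, on log2(RPM + 1), the log2 fold change of U5 was 0.49 ± 0.29 (SE, adjusted p = 0.19). In that fit 40.4% of the families were called higher in iMLL-ENL and 3.92% lower (44.3% in either direction), so a rise of this kind was common on the deposited scale. The exact two-sided permutation p of the sum was 0.31 in RPM and 0.23 on the log scale, where the smallest p the design allows is 0.0286.

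Without WT replicate 2 the WT mean was 978 ± 295 RPM (SD, n = 3), the ratio 1.70 and the log2 fold change 0.80 ± 0.17 (adjusted p = 3.83e-05 in limma), where 41.6% of families were called higher and 5.42% lower (47% in either direction). The exact permutation p for that comparison was 0.0571. The size of the rise depended on the scaling. Trimmed mean (TMM) scaling, which sets the bulk of the rows to no change, moved the median log2 fold change of all tested rows from 0.31 to -0.08, and with it U5 was at 0.09 ± 0.30 (adjusted p = 0.82). With TMM scaling and WT replicate 2 left out, a setting added after seeing the data, U5 was at 0.40 ± 0.17 (adjusted p = 0.047).

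**Figure D1:**
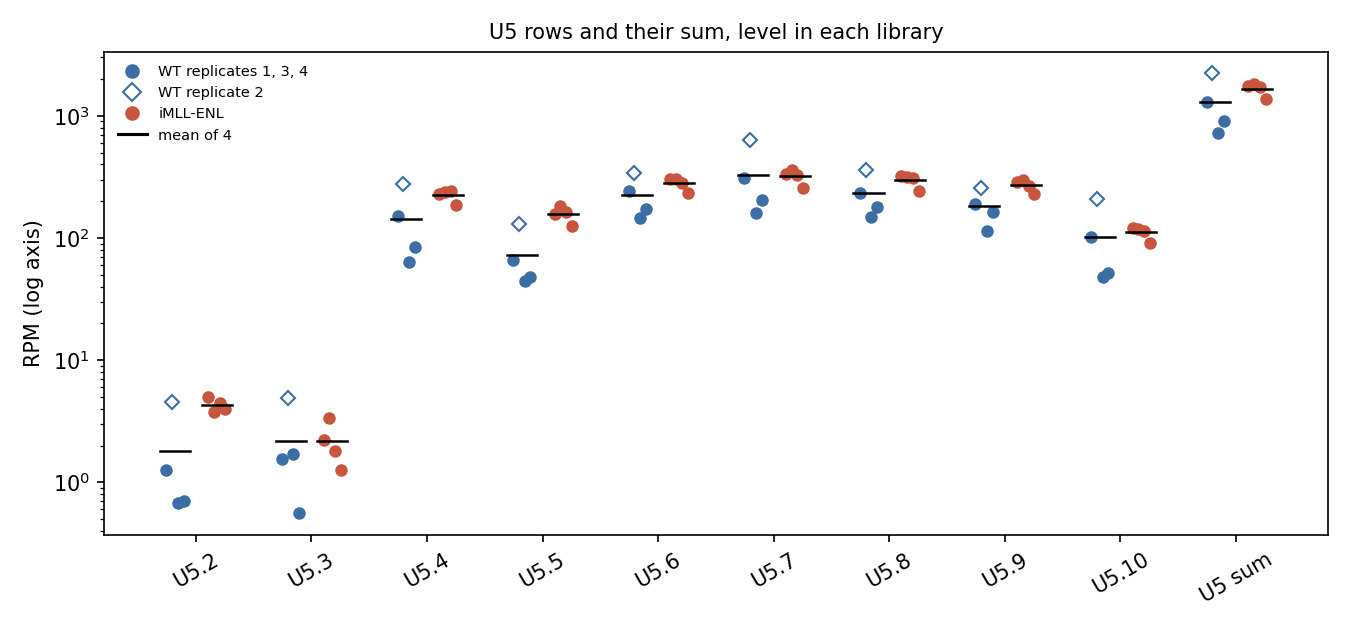
Level of each U5 row and of their sum in RPM on a log axis, with 1 point per library and the arithmetic mean of each group of 4 as a line. WT replicate 2 (open diamond) lies above the other WT libraries in every row, and the 7 abundant rows lie between 44.5 and 637 RPM, against 0.56 to 4.99 RPM for U5.2 and U5.3.

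The order of the rows was nearly the same in every library. U5.7-201 was the highest of the 9 in all 8 libraries, U5.8-201 and U5.6-201 held ranks 2 and 3, in the reverse order in WT replicate 1, and U5.9-201 and U5.4-201 ranks 4 and 5, in the reverse order in WT replicate 2. The lower end of the abundant rows changed places between the groups: U5.10-201 stood above U5.5-201 in all 4 WT libraries and below it in all 4 iMLL-ENL libraries. U5.6-201 and U5.8-201 were close, with a ratio of 0.935 to 1.04 in WT, where their order varied, and of 0.915 to 0.968 in iMLL-ENL, where U5.6-201 was the lower in all 4 libraries. These comparisons are of reads per row and not per length, since no length could be taken from a locus.

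Of the 9 rows, 7 reached 10 RPM in at least 4 libraries and were tested, and 1 of the 7 was called higher and 0 lower. Over all 633 tested rows 20.4% were called higher and 8.53% lower (28.9% in either direction), so the count of 1 is near the background. The tested U5 rows had a median log2 fold change of 0.43, against 0.31 over all tested rows.

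U5.5-201 was at 66.5, 129, 44.5 and 47.8 RPM in WT replicates 1 to 4. It was at 157, 184, 162 and 126 RPM in iMLL-ENL replicates 1 to 4. The groups overlapped by the margin between WT replicate 2 and iMLL-ENL replicate 4, and the other WT libraries were all lower than any iMLL-ENL library. The means of 72.0 ± 39.3 and 157 ± 24 RPM (SD, n = 4) gave a ratio of 2.18. The log2 fold change of the U5.5-201 level was 1.24 ± 0.32 (SE, adjusted p = 0.025 in limma), at rank 27 from the top of the 633 tested rows. It was 1.56 ± 0.19 without WT replicate 2 (adjusted p = 3.92e-05). TMM scaling ended the call (0.84, adjusted p = 0.086). So did leaving out replicate 1 or 3 of WT, or replicate 1, 2 or 3 of iMLL-ENL, with adjusted p up to 0.066 and log2 fold changes of 1.06 to 1.25.

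U5.7-201, the most abundant row, was at 311, 637, 159 and 206 RPM in WT replicates 1 to 4. It was at 336, 361, 324 and 256 RPM in the iMLL-ENL libraries. The highest value was that of WT replicate 2, above all iMLL-ENL libraries, with the other WT libraries mostly below them and replicate 1 above the lowest iMLL-ENL value. The means of 328 ± 216 and 319 ± 45 RPM (SD, n = 4) did not differ beyond that spread (log2 fold change 0.16 ± 0.39, adjusted p = 0.79). Without WT replicate 2 the log2 fold change was 0.54 ± 0.22 (adjusted p = 0.047), and with TMM scaling over all libraries it was below 0, at -0.24 (adjusted p = 0.77).

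U5.4-201 was at 151, 274, 63.1 and 84.9 RPM in WT and at 229, 239, 240 and 187 RPM in iMLL-ENL. Apart from WT replicate 2 all WT libraries were lower than all iMLL-ENL libraries. Its log2 fold change was 0.86 ± 0.40 (adjusted p = 0.13), and 1.25 ± 0.25 without WT replicate 2 (adjusted p = 0.0015). U5.9-201 was at 190, 258, 115 and 164 RPM in WT and at 287, 297, 268 and 227 RPM in iMLL-ENL. Here too only WT replicate 2 reached into the range of the iMLL-ENL libraries. The log2 fold change of U5.9-201 was 0.62 ± 0.23 (adjusted p = 0.072), and 0.81 ± 0.20 without WT replicate 2 (adjusted p = 0.0039).

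U5.6-201, U5.8-201 and U5.10-201 did not pass the test, with log2 fold changes of 0.38 (adjusted p = 0.27), 0.43 (0.24) and 0.37 (0.54). U5.6-201 averaged 225 ± 86 RPM in the WT group against 280 ± 33 RPM in iMLL-ENL, U5.8-201 231 ± 95 and 297 ± 37 RPM, and U5.10-201 102 ± 74 and 111 ± 14 RPM (SD, n = 4). Without WT replicate 2 all 7 tested rows were called higher, where 41.1% of all tested rows were (56.6% were called in either direction), with log2 fold changes from 0.54 for U5.7-201 to 1.56 for U5.5-201. With TMM scaling over all 8 libraries 0 of the 7 were called and 4 had a fold change above 0. With both changes together U5.5-201 (1.17, adjusted p = 1.13e-07) and U5.4-201 (0.85, adjusted p = 9.47e-04) were called. The portion of all tested rows called by limma with TMM scaling is not given here, so these counts cannot be set against a background.

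WT replicate 2 exceeded the mean of the other WT libraries by different factors in different rows. The factor was 3.09 for U5.10-201, 2.83 for U5.7-201, 2.75 for U5.4-201, 2.44 for U5.5-201, 1.93 for U5.8-201, 1.81 for U5.6-201 and 1.65 for U5.9-201. The library thus differed in the composition of U5 as well as in its amount.

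The scarce rows rested on few reads, as estimated from the step of each library. U5.2-201 had 9, 35, 4 and 5 reads in WT replicates 1 to 4 and 38, 35, 39 and 32 reads in iMLL-ENL replicates 1 to 4. In RPM it was 1.26, 4.55, 0.68 and 0.70 against 4.99, 3.77, 4.44 and 4.01, so that WT replicate 2 alone among the WT libraries lay in the iMLL-ENL range. The row was below the filter, and in the fit with no filter its log2 fold change was 1.11 ± 0.37 (adjusted p = 0.054). U5.3-201 had 11, 38, 10 and 4 reads in WT and 17, 31, 16 and 10 reads in iMLL-ENL, with overlapping groups and a log2 fold change of 0.12 ± 0.40 in that fit (adjusted p = 0.85).

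Expressed as a share of the U5 sum, a row hardly depends on how a library was scaled, apart from the pseudocount. By this measure U5.5-201 held 5.11%, 5.82%, 6.14% and 5.26% of the U5 sum in WT replicates 1 to 4. In iMLL-ENL replicates 1 to 4 it held 8.93%, 10.1%, 9.50% and 9.22%. The groups did not overlap, and WT replicate 2 lay inside the range of the other WT libraries. The means were 5.58% ± 0.48 and 9.43% ± 0.48 (SD, n = 4). Counting error was smaller than this gap: in WT replicate 3, the library with the fewest U5 reads, 263 of 4281 reads gave a 95% Wilson interval of 5.46% to 6.90%, which covers counting error only.

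The shares were tested by limma as the log2 ratio of a row to the sum of its name family, over the 486 tested rows of families with at least 2 rows. Of these, 8.85% were called with a higher share in iMLL-ENL and 10.7% with a lower one (19.5% in either direction). Among the 7 tested U5 rows 1 was called with a higher and 1 with a lower share, so these counts are near the background. The share of U5.5-201 rose by a log2 fold change of 0.74 ± 0.07 (SE, adjusted p = 4.0e-04), at rank 21 from the top of the 486 rows. It was 0.76 ± 0.07 without WT replicate 2 (adjusted p = 7.0e-04), and it was called in each of the 16 alternative settings, with leave-one-out values of 0.70 to 0.79.

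In WT replicates 1 to 4, U5.7-201 held 23.9%, 28.7%, 21.9% and 22.6% of the U5 sum. The iMLL-ENL libraries gave it 19.1%, 19.7%, 19.0% and 18.7%. Every WT library was above every iMLL-ENL library, with WT replicate 2 the highest. The means were 24.3% ± 3.1 and 19.1% ± 0.4 (SD, n = 4), a log2 fold change of -0.34 ± 0.08 (adjusted p = 0.025). The change was -0.25 ± 0.04 without WT replicate 2 (adjusted p = 0.0027). The call ended without WT replicate 1 or without any 1 iMLL-ENL library, at adjusted p of 0.056 to 0.070 and log2 fold changes of -0.35 to -0.33. A share that grows in 1 row lowers the sum of the others, so the changes of U5.5-201 and U5.7-201 are not independent.

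**Figure D2:**
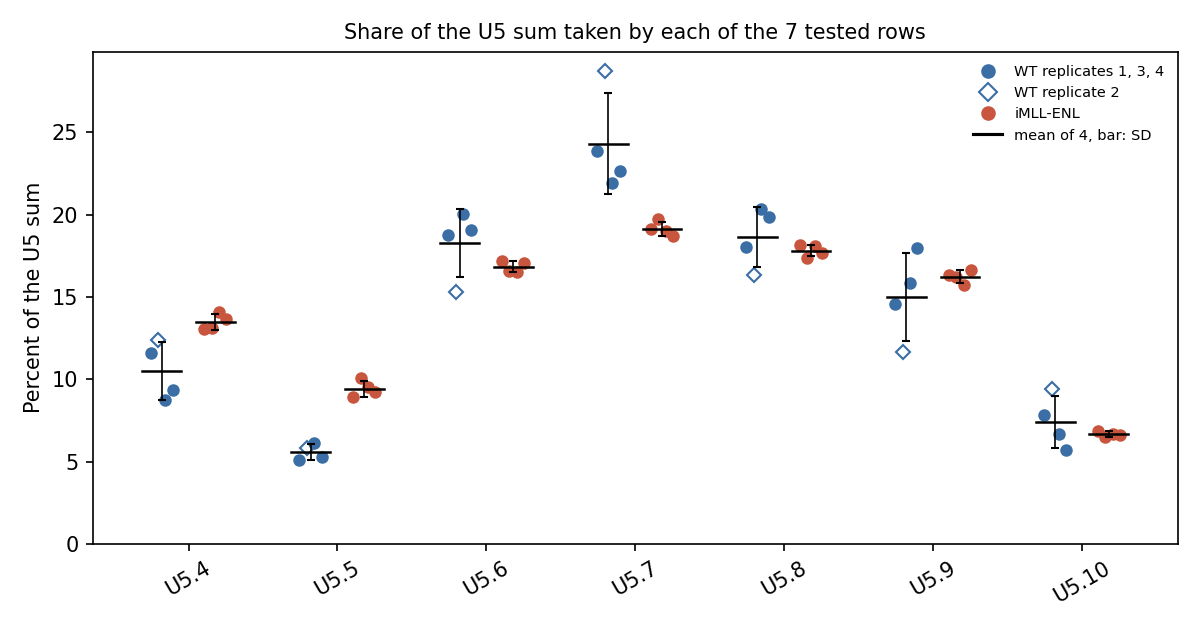
Percent of the U5 sum held by each of the 7 tested rows, with 1 point per library, the group mean as a line and the SD as a bar. U5.5 separates the groups with 5.11% to 6.14% in WT and 8.93% to 10.1% in iMLL-ENL, and U5.7 separates them in the opposite direction.

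U5.4-201 held 11.6%, 12.4%, 8.71% and 9.34% in WT and 13.1%, 13.1%, 14.1% and 13.7% in iMLL-ENL. The groups did not overlap, but the share did not pass the test (log2 fold change 0.37 ± 0.11, adjusted p = 0.056), and it passed without WT replicate 2 (0.45 ± 0.09, adjusted p = 0.013). U5.6-201 had a log2 fold change of share of -0.11 ± 0.08 (adjusted p = 0.39), which became -0.20 ± 0.03 without WT replicate 2 (adjusted p = 0.0047). The shares of U5.8-201 (-0.06), U5.9-201 (0.13) and U5.10-201 (-0.13) did not pass the test with or without that library, with adjusted p of 0.086 to 0.94. Without it, 2 of the 7 rows were called higher and 2 lower in share, where 13% and 14.4% of all rows were.

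The direct ratio of U5.5-201 to U5.7-201 was 0.214, 0.203, 0.280 and 0.232 in WT replicates 1 to 4. In iMLL-ENL replicates 1 to 4 it was 0.468, 0.510, 0.4998 and 0.492. The ratio was thus higher by a factor of 2.12 between the group means, and 2.03 without WT replicate 2, with no overlap. The ratio of U5.4-201 to U5.7-201 did not overlap either, at 0.397 to 0.485 in WT, a range that WT replicate 2 lies inside, and 0.663 to 0.741 in iMLL-ENL. U5.2-201, which the filter left out of the share test, held 0.0770% to 0.205% of the U5 sum in WT and 0.206% to 0.294% in iMLL-ENL. The upper end in WT was WT replicate 2.

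**Figure D3:**
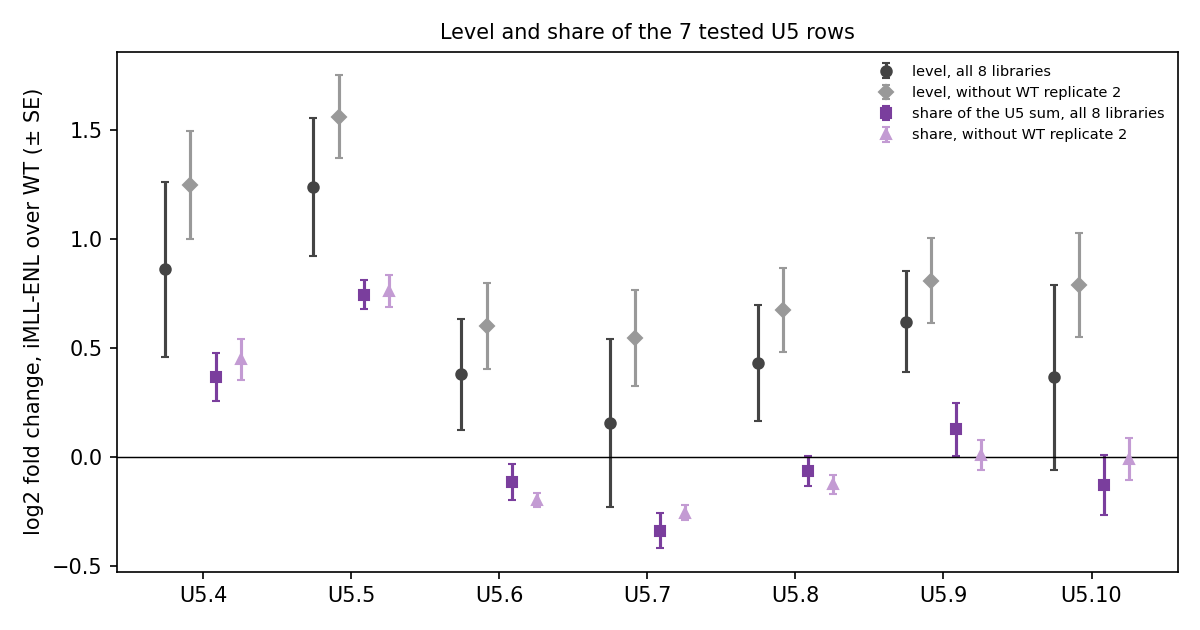
log2 fold change of iMLL-ENL over WT with its SE for the level and for the share of each of the 7 tested U5 rows, with all 8 libraries and without WT replicate 2. Leaving out that library raised the fold change of every level, and the share of U5.5 was 0.74 with it and 0.76 without it.

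The Pearson correlation of log2(RPM + 1) across the 8 libraries, over the 21 pairs of tested rows had a median of 0.935, from 0.685 between U5.5-201 and U5.7-201 to 0.994 between U5.6-201 and U5.8-201. U5.7-201 was also close to U5.10-201 (0.976), and U5.5-201 to U5.9-201 (0.951). With WT replicate 2 left out, the median over these 21 pairs was 0.964, from 0.839 for the same lowest pair to 0.993. Among all 9 rows the pair of the scarce U5.2-201 with U5.5-201 reached 0.964, and 0.973 with that library left out. All these values share the library scale, and copies can share reads. Outside U5, the tested rows most like the U5 sum over the 8 libraries were 3 copies of U6: U6.872-201 (0.967), U6.105-201 (0.962) and U6.828-201 (0.949). Among the 626 tested rows outside U5 the median correlation was 0.2001, and 23 rows were at 0.9 or more. Over the 7 libraries without WT replicate 2, the same U6 rows were at 0.956, 0.979 and 0.985, the median was 0.482 and 73 rows were at 0.9 or more. Each of the 3 U6 rows was highest in WT replicate 2, at 22.1, 62.0 and 69.6 RPM.

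Set against the other snRNAs of the major spliceosome, the portion held by U5 did not differ between the groups beyond a wide spread. In WT replicates 1 to 4, U5 made up 9.24%, 8.03%, 5.91% and 3.85% of the summed U1, U2, U4, U5 and U6 rows. The iMLL-ENL libraries held 8.12%, 5.39%, 8.19% and 4.96%. Values from the groups were interleaved. The means were 6.76% ± 2.37 and 6.66% ± 1.73 (SD, n = 4, exact permutation p = 0.97). Without WT replicate 2 the difference was 0.331 percentage points in favour of iMLL-ENL (exact permutation p = 0.86). The summed rows were mostly U1, with means of 12674 of 19394 RPM in WT and 17752 of 25972 RPM in iMLL-ENL. The portion held by U5 therefore mainly compares U5 with U1. U4, with means of 40.2 and 109 RPM, had almost no weight in it.

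Ratios to single families differed in how they moved. U5 over U4, its partner in the preassembled particle together with U6, was 18.2 to 62.8 in WT and 18.2 to 32.6 without WT replicate 2. In iMLL-ENL it was 12.4 to 20.8, so the ranges overlapped with and without that library. Only iMLL-ENL replicate 1, at 20.8, reached into the WT range. The means were 33.4 ± 20.6 and 15.7 ± 3.7 (SD, n = 4), a ratio of 0.470, and of 0.666 without WT replicate 2. The difference in U5 over U4 was not tested. U5 over U6 was 1.10, 0.969 and 0.905 in WT replicates 1, 3 and 4 but 0.335 in WT replicate 2, and 0.771 to 1.05 in iMLL-ENL. WT replicate 2 was thus higher in U6 by a larger factor than in U5. U5 over U1 was 0.05003 to 0.147 in WT, with or without WT replicate 2, and 0.0701 to 0.135 in iMLL-ENL. U5 over U2 was 0.237 to 0.801 in WT, 0.237 to 0.482 without WT replicate 2, and 0.238 to 0.484 in iMLL-ENL.

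Of the 289 rows of spliceosomal snRNA families, 146 were tested, with 25 called higher and 0 lower, where 20.4% and 8.53% of all tested rows were. Their median log2 fold change was 0.46, against 0.31 over all tested rows. By family the calls were 4 of 27 for U1, which pairs with the 5′ splice site, 12 of 19 for U2, which pairs with the branch site, 2 of 2 for U4, 1 of 7 for U5 and 5 of 87 for U6. For the minor spliceosome they were 1 of 2 for U12, 0 of 1 for U11 and 0 of 1 for U6atac, and the single U4atac row was below the filter on rows. Without WT replicate 2 the calls were 113 higher and 0 lower, including all 7 of U5 and all 87 of U6, where 41.1% and 15.5% of all tested rows were. Copies within a family can share reads, so these calls are not independent of each other. The portions over all tested rows also include the rows of this list. The sums of families were fitted with no filter on level, and of all 332 sums 40.4% were called higher and 3.92% lower. The rate of calls among the spliceosomal families was near this background. As sums, U4 (1.40 ± 0.20, adjusted p = 3.14e-05), U12 (0.80, 0.0041), U4atac (0.76, 0.0097, from 3.89 to 10.5 RPM over the 8 libraries) and U2 (0.60, 0.013) were called higher on the deposited scale, and U1 (0.52, 0.16), U11 (0.31, 0.19), U6 (0.27, 0.81) and U6atac (-0.42, 0.26) were not. With TMM scaling the sum of U4 was still called (1.01, adjusted p = 4.09e-04), and U2, U12 and U4atac were not.

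**Figure D4:**
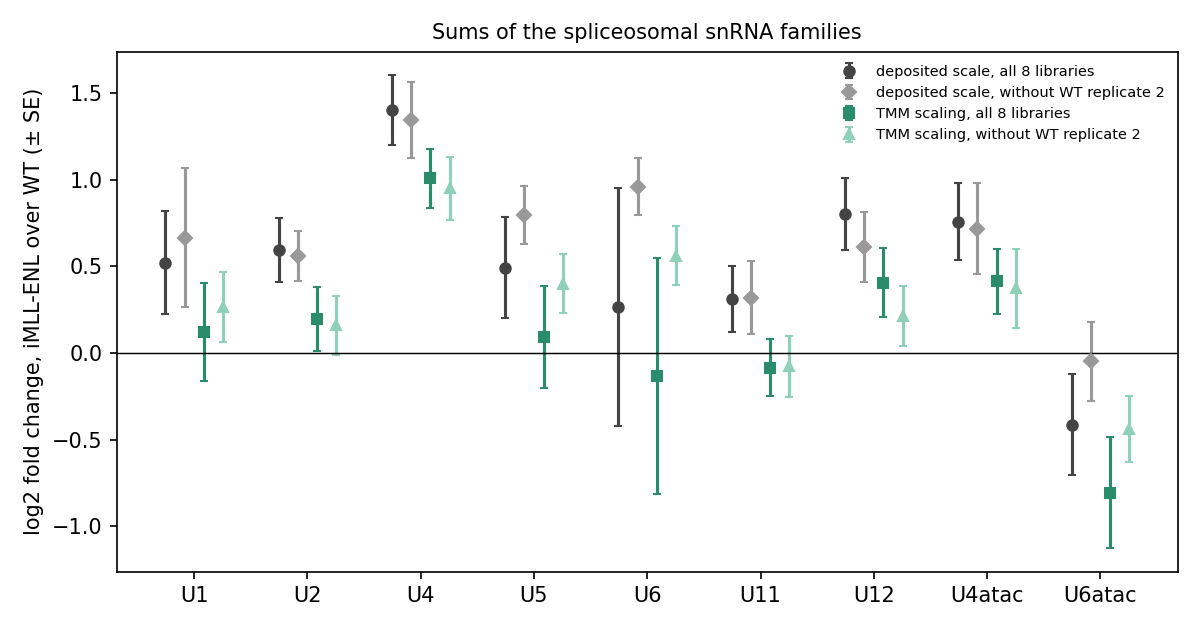
log2 fold change of iMLL-ENL over WT with its SE for the sum of each spliceosomal snRNA family, on the deposited scale and after TMM scaling, each with and without WT replicate 2. U5 moves from 0.49 to 0.80 without that library on the deposited scale, and U6 from 0.27 to 0.96.

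Small Cajal body RNAs (scaRNAs) guide chemical modification of the spliceosomal snRNAs. Of 15 scaRNA rows 8 were tested, with 3 called higher and 0 lower, where 20.4% and 8.53% of all tested rows were, and a median log2 fold change of -0.04 against 0.31. Scarna2-201 went from 25.0 ± 10.2 to 59.1 ± 11.98 RPM (SD, n = 4, log2 fold change 1.27, adjusted p = 0.016). SCARNA7.1-201 went from 46.1 ± 6.2 to 82.4 ± 11.9 RPM and Scarna9-201 from 20.01 ± 3.04 to 32.5 ± 3.6 RPM. Scarna10-201, whose RNA guides modification of U5, was at 27.4 ± 6.4 and 31.4 ± 6.8 RPM and did not pass the test (0.19 ± 0.22, adjusted p = 0.54). Of the other tested scaRNA rows, Scarna3a-201 was at -0.84 (adjusted p = 0.065), and it was called lower without WT replicate 2 (-1.08, adjusted p = 9.3e-04). The rest were below 0 with all libraries: Scarna6-201 (-0.49, adjusted p = 0.091), SCARNA1.1-201 (-0.29, 0.64) and SCARNA6.1-201 (-0.27, 0.40). None of these was called with or without WT replicate 2.

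The authors' deposited table gave none of the 9 U5 rows an FDR under 0.05. In the authors' deposited table the log2 fold change was 0.74 for U5.5-201 (FDR 0.25), 0.84 for U5.2-201 (0.34) and -0.42 for U5.7-201 (0.57), and it lay between -0.42 and 0.26 for the other 6 rows. The order of the abundant rows in the authors' deposited table, with U5.5-201 at the top and U5.7-201 at the bottom, was that of the limma fit of levels with all 8 libraries. Without WT replicate 2 that fit put U5.10-201 (0.79) above U5.8-201 (0.67) and U5.6-201 (0.60). An edgeR quasi-likelihood test on the reads taken from the steps was added after seeing the data. It gave U5.5-201 a log2 fold change of 1.13 (adjusted p = 0.038) on the deposited scale and 0.74 (adjusted p = 0.16) with TMM scaling. On these scales it called 193 (30.5%) and 167 (26.4%) of the 633 rows in either direction. With TMM scaling its fold changes were close to the authors' in all 7 tested rows, with 0.26 in both for U5.4-201 and -0.42 in both for U5.7-201.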

How the data were processed

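Small RNA libraries of 4 WT and 4 iMLL-ENL samples were prepared with the QIAseq miRNA kit, per the labels' protocols. The authors deposited 1 value per row and library, labelled TPM but treated here as RPM: in each library 99.8% to 100% of values are multiples, to within 0.0055 RPM, of 1 step common to all rows, taken as 1 read. The deposited table also holds the authors' log2 fold change, mean log2 CPM, p-value and FDR. The build was GRCm38, per the submitters' processing notes. Aligner, counting program, annotation and handling of multiply mapped reads: not given in the sources used here.

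Groups were compared with limma 3.58.1 (R 4.3.3, statmod 1.5.0; trended, robust prior, two-sided, Benjamini-Hochberg at 0.05) on log2(RPM + 1). Rows were tested, in level and in share, if they had 10 RPM or more in at least 4 libraries. Family sums had no such filter. A name family is the name before the first dot or hyphen, and for tRNA the amino acid and anticodon. Fold changes on this scale understate the change of low rows. The prior pools variance over rows, so a limma p does not measure 1 row's spread alone. edgeR 4.0.16 gave TMM factors and an added count test. Exact permutation tests were run in Python 3.11.15 (numpy 2.4.6, pandas 2.3.3). The fits were tested on simulated data. All 9 U5 rows are named, with the 3 rows most like their sum. The members and lists were chosen with earlier results of these data known. Row names were looked up in GENCODE M21. Sequences of U5 genes are not reported here.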

Additional observations from a re-analysis of the deposited data

Results flagged for a closer look

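In groups of 4, a library was set apart where its gap to the nearest of the others took up most of the group's range (Dixon's test at the 95% level), which chance gives in about 1 of 20 groups. Of 40 groups of U5 values examined, 3 were set apart. U5.2-201 was at 4.55 RPM in WT replicate 2, where the remaining WT values ran from 0.68 to 1.26. Its share of the U5 sum there was 0.205%, against 0.0770% to 0.0968%. U5.8-201 was at 241 RPM in iMLL-ENL replicate 4, against 309 to 319 RPM in the other iMLL-ENL libraries, while its share of 17.7% lay inside their range of 17.4% to 18.1%.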

How the results depend on the processing

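The share of U5.5-201 was called higher in each of the 16 alternatives run for it. Of the 7 tested U5 rows, the number called higher in level was 1 as reported, 0 with TMM scaling, 5 when each library was scaled to its row total, 5 with sample quality weights, 2 with a filter at 50 RPM, 0 with edgeR and TMM, 2 with TMM scaling and WT replicate 2 left out, and 0 to 7 when 1 library was left out. The log2 fold change of the U5 sum was 0.78 with scaling to the total, 0.47 with quality weights and 0.40 with TMM scaling and WT replicate 2 left out, all called, and -0.014 with edgeR and TMM. It was 0.26 to 0.80 when 1 library was left out, and called only without WT replicate 2. U5.6-201 turned to -0.018 with TMM and -0.072 with edgeR and TMM, U5.10-201 to -0.030 and -0.27, and U5.8-201 to -0.026 with edgeR and TMM. U5.7-201 turned to -0.24 with TMM, -0.041 with edgeR and -0.42 with edgeR and TMM, and was -0.12 to 0.54 when 1 library was left out. None of these reversed values was called.

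Of the U5 shares, 2 were called higher with a pseudocount of 10, 2 with quality weights and 2 with the filter at 50 RPM, and 2 were called lower with quality weights. Leaving out 1 library gave 1 to 2 higher and 0 to 2 lower. The difference in the U5 portion of the major snRNAs was -1.06 to 0.734 percentage points when 1 library was left out, above 0 without WT replicate 1 (0.734), WT replicate 2 (0.331), iMLL-ENL replicate 2 (0.332) or iMLL-ENL replicate 4 (0.477). The spliceosomal list had 11 rows called higher with TMM, 53 with scaling to the total, 131 with quality weights, 55 with no filter, 9 with edgeR and TMM, 71 with TMM and WT replicate 2 left out, and 8 to 113 when 1 library was left out. With TMM and WT replicate 2 left out 1 of the 146 was called lower. With no filter 289 rows of the list were tested, with 55 called higher and 2 lower. Of the scaRNA rows, 5 of 15 tested were called higher with no filter, and the 1 row tested with the filter at 50 RPM was called higher. When 1 library was left out, 1 to 3 of the 8 tested were called higher. Called lower were 2 with TMM, 3 with quantile normalization, 1 with median centring, 2 with quality weights, 1 with edgeR, 3 with edgeR and TMM, 3 with TMM and WT replicate 2 left out, and 0 to 1 when 1 library was left out. For most of these settings the portion of all tested rows called is not given here. The counts of U5, spliceosomal and scaRNA rows under them therefore cannot be set against a background. The estimation of the quality weights gave a warning on convergence in some fits. The cause of the changes between settings was not tested.

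Replicate numbers are shared between the groups, but the labels name no shared source for a number, and 1 of the 4 same-numbered pairs correlated below 0 (-0.13, the others up to 0.42), so the numbers were not taken as pairs. As a hint from the data, 6 of 8 libraries correlated best with their own number. With the replicate number as a block, 2 U5 rows were called higher in level, U5.9-201 being the added one (adjusted p = 0.049 in limma), and the U5 sum stayed at 0.49 (adjusted p = 0.053). DESeq2 was not run.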
